A study of Mus musculus with 12 samples.

Results

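Genes for 10 secreted growth factors that act on neural cells were followed through 4 groups of mouse phagocytes from the central nervous system (CNS). The members were Igf1, Pdgfa, Pdgfb, Pdgfc, Vegfa, Vegfb, Hbegf, Hgf, Fgf2 and Grn, and they were found by matching the mouse Ensembl identifiers of the deposited table to these symbols. All 10 were present among the 25904 genes of the table, and all 10 were high enough in at least 3 of the 12 libraries (10 normalized counts) to be tested. RNA had been sequenced from wild-type (WT) and Tgfbr2 knockout (KO) microglia and from WT and KO macrophages, with 3 libraries in each group. The product of Tgfbr2 is the type II receptor of the cytokine TGF-beta.

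All mice were C57BL/6, and tamoxifen was given to all 4 groups as 3 daily subcutaneous injections of 5 mg. WT microglia came from Tgfbr2 fl/fl mice, which carry no Cre, and KO microglia from Cx3cr1 CreER/+ Tgfbr2 fl/fl mice, in which the inducible Cre sits on 1 allele of Cx3cr1. The KO cells therefore also had 1 altered Cx3cr1 allele that the WT cells did not have, and any other Cx3cr1-expressing cell of these mice could recombine too. Macrophages descended from bone marrow of the same WT or KO genotypes. The marrow had been given to irradiated Cx3cr1 CreER/+ R26 DTA/+ recipients, and tamoxifen 6 weeks later was used to deplete the recipients' own microglia. Recipient cells that escaped depletion could have fallen within the same gate. Cells were sorted 18 to 22 days after tamoxifen as live cells that carried CD11b and lacked Ly6C, with low F4/80 in WT and high F4/80 in KO, so the gate and the genotype cannot be told apart. A library pooled 1 to 5 mice, and p-values measure the spread between such pools. The sources used here give no ages for the mice.

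Apart from Grn, the members encode secreted or shed ligands that bind receptor tyrosine kinases on neighbouring cells. In the CNS, IGF1 promotes survival and myelination, PDGF-A drives oligodendrocyte precursors, PDGF-B recruits pericytes to vessels, and VEGF-A acts on the endothelium. Microglia are a known source of IGF1 and of progranulin, the product of Grn, and TGF-beta is a signal on which the microglial state depends.

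Each library had 2615404 to 6364994 reads in genes, and values below are normalized counts, in which 1 read was worth 0.718 to 1.6 units. Ddx3y, a male-specific transcript, stood at 0.881, 1.29 and 436 in WT and at 501, 470 and 508 in KO microglia libraries. In macrophages it stood at 0.910, 8.90 and 653 in WT and at 0, 540 and 0 in KO libraries. The sex of the pools was therefore not balanced between KO and WT cells, and in microglia it largely went with genotype. The targeted gene, Tgfbr2, was lower by log2 0.40 ± 0.10 in KO microglia (limma, adjusted p = 0.00515) and by log2 0.56 ± 0.10 in the KO macrophages (adjusted p = 0.000608), in counts that do not separate the floxed exons from the rest. Microglial markers, 10 genes, summed to 66493 to 86726 in WT microglia, 5293 to 5836 in KO microglia, 19272 to 20243 in WT macrophages and 5905 to 6757 in KO macrophages. Tmem119, a defining microglial marker, averaged 2.17 in the KO microglia, so the libraries labelled KO microglia nearly lacked it. Olfml3 (5.06) and Slc2a5 (3.78) of the same list were also low there. Sall1 (338), P2ry12 (298) and Siglech (247) stood higher, but far below their WT microglia means (6360, 12319 and 5644). The macrophage means of Sall1 were 7.31 (WT) and 11.5 (KO), and those of P2ry12 were 1353 (WT) and 423 (KO). KO macrophages differed from KO microglia by log2 -4.90 in Sall1, 0.51 in P2ry12 and -1.12 in Siglech. Between the 2 KO groups, 3 of these 10 genes were called higher and 2 lower in the macrophages (limma). Markers of bone marrow-derived and border macrophages, also 10 genes, summed to 125 to 156 in WT microglia, 19962 to 24280 in KO microglia, 7178 to 8384 in WT macrophages and 19857 to 20717 in KO macrophages. Neuronal markers, 8 genes, were also higher in KO cells (104 to 143 in KO against 14.1 to 24.5 in WT microglia, and 79.7 to 147 in KO against 31.9 to 54.6 in WT macrophages), and so were the 8 oligodendrocyte markers (443 to 514 against 313 to 341 in microglia, and 304 to 575 against 262 to 289.8 in macrophages). The 5 monocyte markers found summed to 122 to 166 in KO and 41.4 to 54.1 in WT microglia, and to 166 to 353 in KO and 170.4 to 218.5 in WT macrophages. Markers of neutrophils summed to at most 16.7 and those of T and NK cells to at most 9.34 in any library, and no reads came from S100a8 and S100a9 in KO macrophages. Mitochondrial transcripts took 5.84 to 7.68% of reads in KO and 3.86 to 4.36% in WT microglia, and 4.61 to 6.43% in KO and 3.18 to 5.35% in WT macrophages. The part of these shifts in the results below was not tested. In such bulk samples, fewer cells of a type and less RNA per cell cannot be told apart.

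KO microglia had higher Igf1, Pdgfc and Hgf and lower Fgf2, Vegfa, Pdgfa and Pdgfb than WT microglia. KO macrophages had higher Pdgfc, Hbegf, Igf1 and Grn and lower Fgf2. Igf1 covered the widest span in microglia, from 6.64 ± 3.24 in WT to 966 ± 87.5 in KO cells (mean ± SD, n = 3). Fgf2 was by far highest in WT macrophages, at 410.4 ± 40.3, and almost absent from KO microglia, at 1.25 ± 1.52. Vegfb was called in neither KO comparison.

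**Figure D1:**
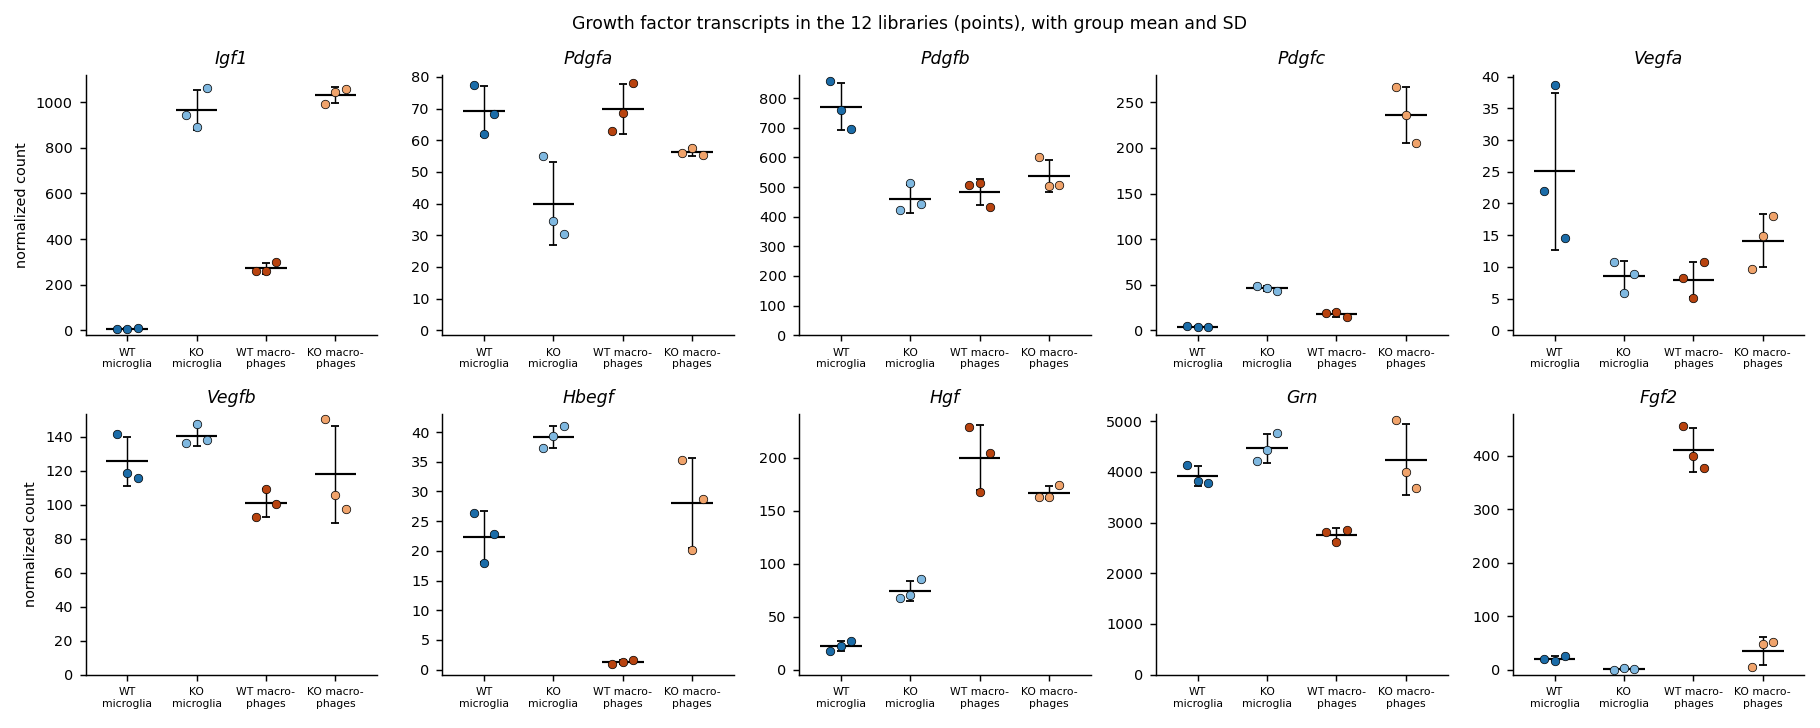
Normalized counts of the 10 growth factor genes in each of the 12 libraries, in 4 groups of 3; points are libraries, and horizontal lines with bars are the group mean ± SD. Igf1 in WT microglia (4.41 to 10.35) and Fgf2 in KO microglia (0 to 2.95) lie near 0, far below the highest group of the same gene.

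Over the 10 members, 3 were called higher and 4 lower in KO than in WT microglia (limma, adjusted p threshold 0.05), where 42.5% of the 12519 tested genes were called, 21.9% higher and 20.6% lower. In macrophages 4 were higher and 1 lower, against 31.4% of all genes, 16.0% higher and 15.4% lower. WT macrophages against WT microglia gave 4 higher and 4 lower (39.4% of all genes called, 19.2% higher and 20.2% lower). KO macrophages against KO microglia gave 3 higher and 0 lower (10.5% of all genes, 5.45% higher and 5.05% lower), and 0 members were lower there at an unadjusted p under 0.05 or by limma-voom on the recovered reads. The KO effects differed between macrophages and microglia for 6 members (Igf1, Hgf, Hbegf, Pdgfb, Vegfa and Grn), against 25.8% of all genes, and for 4 with Ddx3y, a male-specific transcript, as a covariate, where Vegfa and Grn were not called. The member medians were 0.18 for the KO comparison in microglia and 0.40 in macrophages, where the medians of all genes were -0.01 and 0.00. WT macrophages against KO microglia gave 3 higher and 5 lower (35.1% of all genes, 16.1% higher and 19.0% lower), and KO macrophages against WT microglia gave 3 higher and 1 lower (43.9%, 22.1% higher and 21.9% lower). Libraries of both groups stayed apart for 9 members between KO and WT microglia (55.2% of all genes) and for 6 between KO and WT macrophages (45.2%). They stayed apart for 9 between WT macrophages and WT microglia (53.9%), 5 between the KO groups (27.1%), 8 between WT macrophages and KO microglia (53.1%) and 5 between KO macrophages and WT microglia (50.3%). These comparisons share groups, and their counts are not independent of each other.

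Per kilobase of exon, the scale on which different genes can be compared, Grn was the highest member in every group, with means of 1127, 1286, 794 and 1220 normalized counts per kb in WT microglia, KO microglia, WT macrophages and KO macrophages. Pdgfb came next in all 4 groups, with levels of 185, 111, 116 and 129 per kb in the same order. Below them the order differed between groups. Igf1 was the lowest member in WT microglia (0.670 per kb) and the third highest in KO microglia (97.5 per kb) and in KO macrophages (104 per kb). Fgf2 was the lowest member in KO microglia (0.184 per kb), and Hbegf in WT macrophages (0.264 per kb). Vegfa was the lowest in KO macrophages, at 3.30 per kb.

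**Figure D2:**
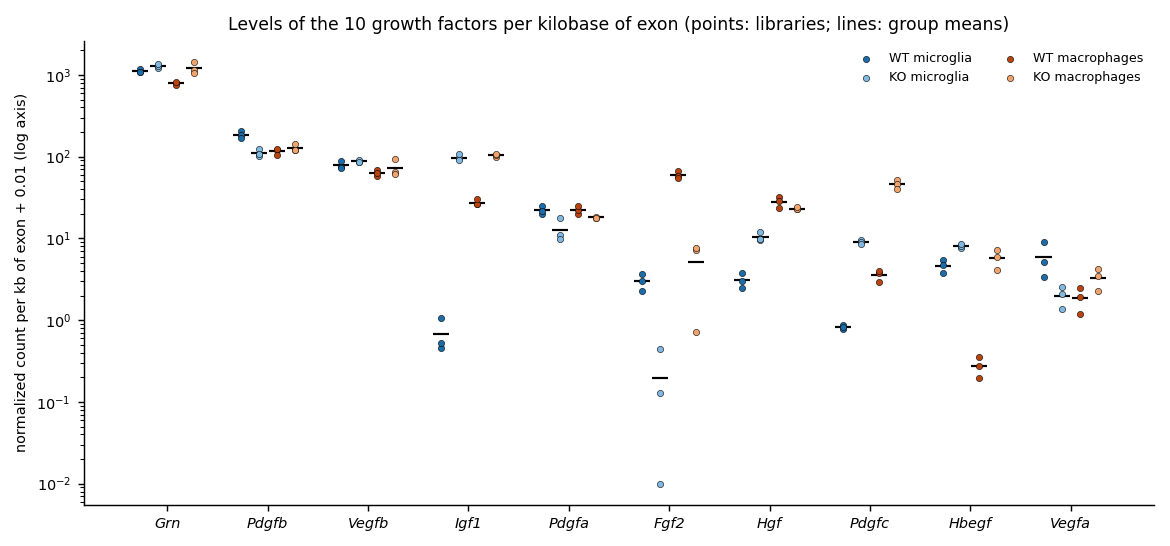
Normalized count per kilobase of exon, plus 0.01, on a log axis for each member in the 4 groups; points are libraries and lines are group means. Grn (794 to 1286 per kb) is above every other member in each group, while Igf1 runs from 0.670 in WT microglia to 104 in KO macrophages.

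The upstream sequences of Pdgfc and Hgf are shown because both genes rose in KO microglia and the windows shown hold no annotated exon of the gene. Each run is the 250 bases that end at the annotated gene start, 5′ to 3′, from the RefSeq table of build GRCm38.p6. The Pdgfc window is chr3:81036166-81036415 and the Hgf window chr5:16553245-16553494, both on the plus strand. Capitals mark matches on either strand to CAGAC (the box bound by Smads, the transcription factors of TGF-beta signalling), ACGTG (core of the hypoxia response element), TGANTCA (AP-1) or GAGGAAG (PU.1).
Pdgfc: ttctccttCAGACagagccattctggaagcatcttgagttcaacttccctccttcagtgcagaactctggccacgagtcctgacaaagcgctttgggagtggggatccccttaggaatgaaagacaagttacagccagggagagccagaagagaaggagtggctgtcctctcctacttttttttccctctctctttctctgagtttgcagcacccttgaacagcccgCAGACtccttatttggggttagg
Hgf: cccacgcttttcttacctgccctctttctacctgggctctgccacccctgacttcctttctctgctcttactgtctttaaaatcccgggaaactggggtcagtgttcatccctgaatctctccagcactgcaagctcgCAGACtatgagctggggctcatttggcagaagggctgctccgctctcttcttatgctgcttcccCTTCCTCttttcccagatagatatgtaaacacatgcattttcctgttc
The Pdgfc window held 2 matches to CAGAC, and the Hgf window shown held 1 match to CAGAC and 1 to the complement of GAGGAAG. A further Hgf window, chr5:16553651-16553900, is not shown. It had 150 of its 250 bases in exons of the gene and held 1 match to CAGAC. The windows of Igf1, Pdgfa, Vegfb and Grn held no match to CAGAC, while those of Vegfa and Fgf2 did. The motif CAGAC stood in 42.2% of the 32851 upstream windows of the same length in the table, ACGTG in 16.6%, TGANTCA in 6.75% and GAGGAAG in 10.6%. A match is a description of letters, not of binding, and the lack of a match says only that these letters are not in the window. The table held an entry for 8 of the 10 members.

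Igf1 (ENSMUSG00000020053, GRCm38 chromosome 10, 87858265 to 87937042, plus strand) encodes insulin-like growth factor 1, the ligand of the IGF1 receptor. WT microglia libraries had 4.41, 5.15 and 10.35 normalized counts, from 19 reads in all, and KO microglia had 945, 891 and 1062. Every KO library was therefore far above every WT library. The difference was 7.06 ± 0.20 (log2 ± SE, limma, adjusted p = 3.69e-13), and the ratio of pooled reads was 147 with a 95% interval of 94.1 to 245. Intervals of this kind treat the pooled reads of 3 libraries as independent draws and leave out the spread between the pools of mice. Because the reads carry no molecular identifiers, duplicate reads could not be set apart, and even the counting error may be understated.

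WT macrophages expressed Igf1 at 259, 259 and 299, and KO macrophages at 991, 1046 and 1059, again without overlap. Igf1 rose by log2 1.92 ± 0.20 in the KO macrophages (limma, adjusted p = 3.5e-06). WT macrophages were above WT microglia by log2 5.24 ± 0.20 (adjusted p = 2.3e-11). The KO groups overlapped, with a difference of 0.10 and a 95% interval of -0.33 to 0.53 (adjusted p = 0.824). The KO effect was smaller in macrophages than in microglia by log2 5.14 (adjusted p = 5.06e-09 for the difference of the effects).

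Pdgfa, Pdgfb and Pdgfc encode chains of platelet-derived growth factor. Pdgfa (ENSMUSG00000025856, chromosome 5, 138976014 to 138997370, minus strand), whose product signals through PDGFR-alpha on oligodendrocyte precursors, stood at 77.6, 61.8 and 68.3 in the WT and at 55.0, 34.4 and 30.5 in the KO microglia libraries. The groups did not overlap, and it fell by log2 0.82 ± 0.21 (limma, adjusted p = 0.00534). WT macrophages had 62.8, 68.6 and 78.2, and KO macrophages had 56.0, 57.6 and 55.3. There the difference of -0.30 was not called (95% interval -0.75 to 0.15, adjusted p = 0.298). The difference between the KO effects was 0.52 and also was not called (95% interval -0.12 to 1.15, adjusted p = 0.227), so an effect confined to microglia was not shown. Without KO microglia replicate 1, which had the highest KO value, that difference was 0.76 (adjusted p = 0.0483).

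Pdgfb (ENSMUSG00000000489, chromosome 15, 79995874 to 80014977, minus strand), whose product acts on pericytes through PDGFR-beta, had 857, 760 and 698 normalized counts in the WT and 423, 513 and 444 in the KO microglia. All KO values lay below all WT values, and Pdgfb fell by log2 0.74 ± 0.11 (limma, adjusted p = 4.39e-05). WT macrophages had 508, 512 and 434 and KO macrophages 600.2, 504 and 508, with overlap and a difference of 0.15 that was not called (95% interval -0.08 to 0.38). WT macrophages were below WT microglia by log2 0.67 (adjusted p = 0.000157), a comparison that shares its WT microglia with the KO comparison. The KO effects differed by 0.89 ± 0.15 (adjusted p = 0.000514). Vessel markers, of which 4 of 8 could be tested, summed to 187 to 308 in WT microglia, 101 to 127 in KO microglia, 44.5 to 71.0 in WT macrophages and 114 to 173 in KO macrophages. They were highest in WT microglia, as Pdgfb was. Kcnj8 was at 0 in WT microglia and KO macrophages, and the part of vessel cells in the Pdgfb level was not tested.

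Pdgfc (ENSMUSG00000028019, chromosome 3, 81036416 to 81214040, plus strand) encodes a chain that is secreted in latent form and activated by cleavage. WT microglia had 4.41, 3.87 and 4.14 (12 reads in all), KO microglia 49.1, 46.2 and 43.4, WT macrophages 19.1, 20.3 and 14.8, and KO macrophages 267, 236 and 205. No 2 groups overlapped. Pdgfc rose by log2 3.20 ± 0.22 in KO microglia (limma, adjusted p = 9.17e-09) and by log2 3.64 ± 0.22 in the KO macrophages (adjusted p = 1.3e-08). Its pooled reads rose by ratios of 11.04 (95% interval 6.14 to 21.8) and 12.9 (9.79 to 17.3). The macrophages were above the microglia in both genotypes, by log2 1.88 in WT (adjusted p = 5.76e-06) and 2.32 in KO cells (adjusted p = 4.71e-06). The difference between the KO effects was 0.44 and was not called (95% interval -0.22 to 1.10, adjusted p = 0.327). On a log scale with a pseudocount of 5 in place of 1, it was 0.90 (adjusted p = 0.0191).

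**Figure D3:**
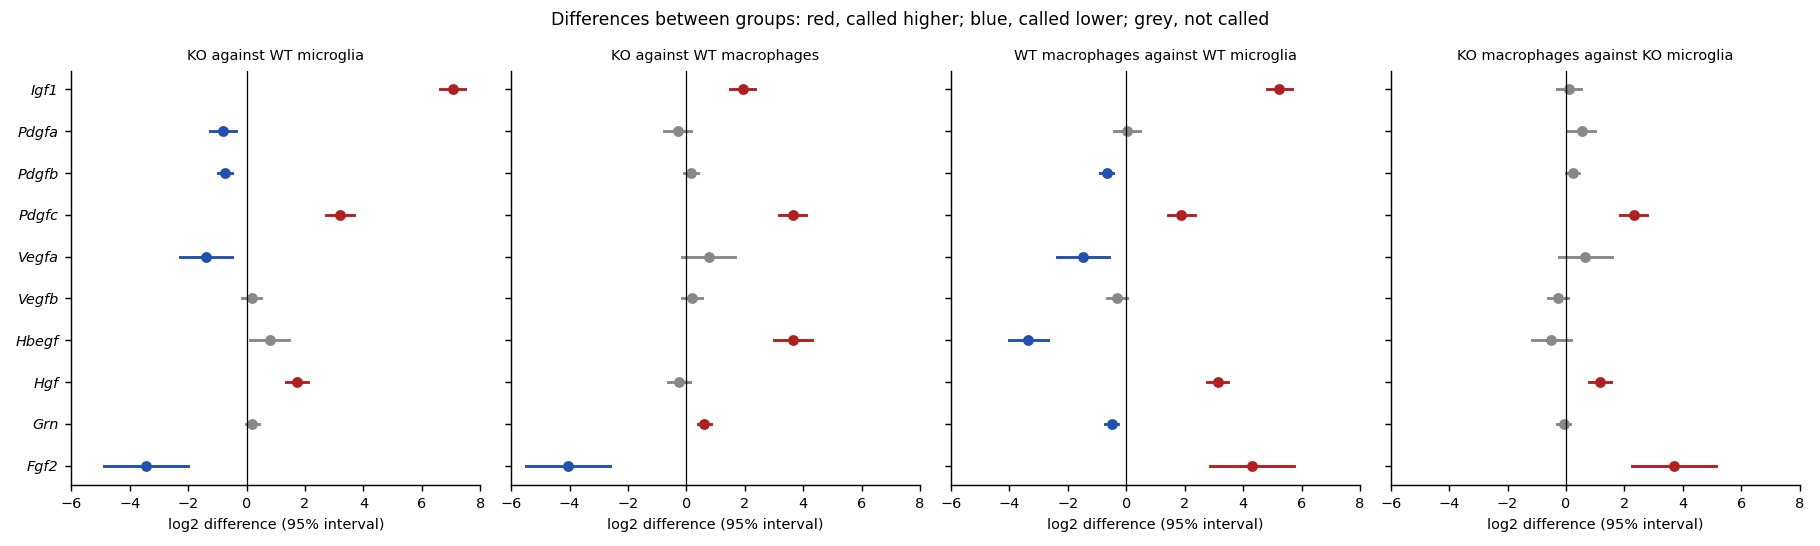
Log2 differences (x axis) of the 10 members in 4 comparisons, with 95% intervals; red points were called higher, blue points lower and grey points were not called at an adjusted p of 0.05. Igf1 stands at 7.06 for KO against WT microglia, and Fgf2 lies below 0 in both KO comparisons (-3.44 and -4.05).

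Vegfa and Vegfb encode vascular endothelial growth factors, and VEGF-A is the main ligand of KDR. Vegfa (ENSMUSG00000023951, chromosome 17, 46016993 to 46032369, minus strand) was low in all groups. WT microglia had 22.0, 38.7 and 14.5 and KO microglia 10.8, 5.90 and 8.84, from 69 and 28 reads. The lowest WT library was still above the highest KO library, and Vegfa fell by log2 1.38 ± 0.42 (limma, adjusted p = 0.0149). The call was lost without WT microglia replicate 2 (log2 -1.02, adjusted p = 0.0882), without KO microglia replicate 2 (log2 -1.17, adjusted p = 0.0655) and with Ddx3y as a covariate (adjusted p = 0.0522). Ddx3y stood at 470.0 to 508 in the KO microglia libraries and at 0.881, 1.29 and 436 in the WT microglia libraries, so the sex of the pools was not balanced.

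WT macrophages had Vegfa at 8.19, 5.08 and 10.7 and KO macrophages at 9.60, 14.8 and 18.0, with overlap and a difference of 0.76 that was not called (95% interval -0.14 to 1.66, adjusted p = 0.184). WT macrophages were below WT microglia by log2 1.48 (adjusted p = 0.0112), a call that was lost without WT microglia replicate 2 (adjusted p = 0.0674) or WT macrophages replicate 2 (adjusted p = 0.0524). The KO effects differed by 2.14 ± 0.59 (adjusted p = 0.0153), or 2.07 with the Ddx3y covariate (adjusted p = 0.0521). Vegfb (ENSMUSG00000024962, chromosome 19, 6982473 to 6987651, minus strand) had 142, 119 and 116 in the WT and 137, 147 and 138 in the KO microglia. The WT macrophages had 92.8, 109 and 100.4, and the KO macrophages had 150.5, 106 and 97.7. Its KO differences were 0.17 in microglia (95% interval -0.17 to 0.51) and 0.20 in macrophages (95% interval -0.14 to 0.54), neither called. WT macrophages and KO microglia were the only groups of the 6 pairs that differed in Vegfb by the test, by log2 -0.48 (adjusted p = 0.0279). Without KO macrophages replicate 1, Vegfb was also called lower in WT macrophages than in WT microglia (-0.31, adjusted p = 0.0462) and in KO macrophages than in KO microglia (-0.47, adjusted p = 0.0315).

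Hbegf (ENSMUSG00000024486, chromosome 18, minus strand) encodes a membrane-anchored ligand of the EGF receptor that is shed by proteases. WT macrophages had 0.910, 1.27 and 1.65 normalized counts, only 4 reads in all, and KO macrophages had 35.2, 20.1 and 28.7. Hbegf rose by log2 3.65 ± 0.31 (limma, adjusted p = 4.54e-07), a ratio of pooled reads of 20.8 with an interval of 7.84 to 78.2. WT microglia stood at 26.4, 18.0 and 22.8, above every WT macrophage library, and the log2 difference of WT macrophages from them was -3.36 (adjusted p = 5.07e-07). KO microglia had 37.3, 39.3 and 41.0, all above WT microglia, but the difference of 0.80 was not called (95% interval 0.13 to 1.46, adjusted p = 0.0523). It was called under 7 of the 21 other settings that could be fitted, among them leaving out WT macrophages replicate 1 (adjusted p = 0.0486) or replicate 2 (adjusted p = 0.0494) or KO macrophages replicate 1 (adjusted p = 0.0387). The KO effect was larger in macrophages than in microglia by log2 2.85 ± 0.44 (adjusted p = 0.000207).

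Hgf (ENSMUSG00000028864, chromosome 5, 16553495 to 16620152, plus strand) encodes hepatocyte growth factor, the ligand of MET. WT microglia had 17.6, 21.9 and 26.9, and KO microglia had 67.8, 70.8 and 85.2. Without overlap, Hgf rose by log2 1.72 ± 0.17 (limma, adjusted p = 8.66e-07). WT macrophages, at 228, 168 and 204, and KO macrophages, at 163, 163 and 174, overlapped and differed by -0.25 (95% interval -0.62 to 0.12, not called). The macrophages stood above the microglia in WT (log2 3.13, adjusted p = 1.85e-09) and in KO cells (log2 1.16, adjusted p = 0.000311). The KO effect was lower in macrophages by log2 1.97 ± 0.25 (adjusted p = 2.77e-05).

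Fgf2 (ENSMUSG00000037225, chromosome 3, 37348346 to 37410108, plus strand) encodes basic fibroblast growth factor, which leaves the cell without a signal peptide. WT macrophages had 455, 399 and 377, and KO macrophages 4.80, 48.9 and 51.7. Fgf2 fell by log2 4.05 ± 0.67 (limma, adjusted p = 0.000306). KO macrophages replicate 1, with 3 reads, was the lowest, and without it the fall was 3.0 ± 0.41 (adjusted p = 3.32e-05). The same library was also lowest of its group for Tmem119 (144 against 412 and 363), Pmepa1, a TGF-beta target (158 against 586 and 486), and Mmp14 (46.4 against 262 and 210), genes chosen after their values were seen. Sparc, on the same marker list as Tmem119, went the other way and was highest in this library (22.4 against 11.3 and 12.9). This library also had the fewest reads, 2615404. The part of this library's state in the Fgf2 value was not tested.

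In microglia, Fgf2 stood at 20.3, 15.5 and 24.8 in WT and at 0, 2.95 and 0.80 in KO libraries, from 59 and 4 reads. The groups did not overlap, and Fgf2 fell by log2 3.44 ± 0.67 (limma, adjusted p = 0.000645), with a ratio of pooled reads of 16.8 (95% interval 6.23 to 63.7). WT macrophages were above WT microglia by log2 4.30 (adjusted p = 0.000108) and KO macrophages above KO microglia by 3.69 (adjusted p = 0.0017), or 4.74 without KO macrophages replicate 1. The KO effects differed by -0.61, which was not called (95% interval -2.64 to 1.41), and by 0.44 without that library. Astrocytes are a known source of FGF2 in the CNS. Their markers, of which 4 of 7 were tested, summed to 52.9 to 116 in WT microglia, 212 to 280 in KO microglia, 43.7 to 66.1 in WT macrophages and 143 to 181 in KO macrophages, and their part in the Fgf2 values was not tested.

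Grn (ENSMUSG00000034708, chromosome 11, 102430315 to 102437048, plus strand) encodes progranulin, a secreted and lysosomal glycoprotein. WT microglia had 4145, 3824 and 3777, and KO microglia had 4211, 4424 and 4769.9. These values did not overlap, but the difference of 0.19 was not called (95% interval -0.03 to 0.41, adjusted p = 0.159), except without KO macrophages replicate 1 (adjusted p = 0.0365). WT macrophages had 2808, 2613 and 2857 and KO macrophages 5028, 3993 and 3692, and Grn rose by log2 0.61 ± 0.10 (limma, adjusted p = 0.000395). WT macrophages were below WT microglia by log2 0.50 (adjusted p = 0.00118). The KO groups overlapped and differed by -0.09 (95% interval -0.31 to 0.13). The KO effects differed by 0.42 (adjusted p = 0.0484), a call lost in 15 of the 21 other settings, 10 of them leaving out 1 library, with adjusted p of up to 0.144.

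**Figure D4:**
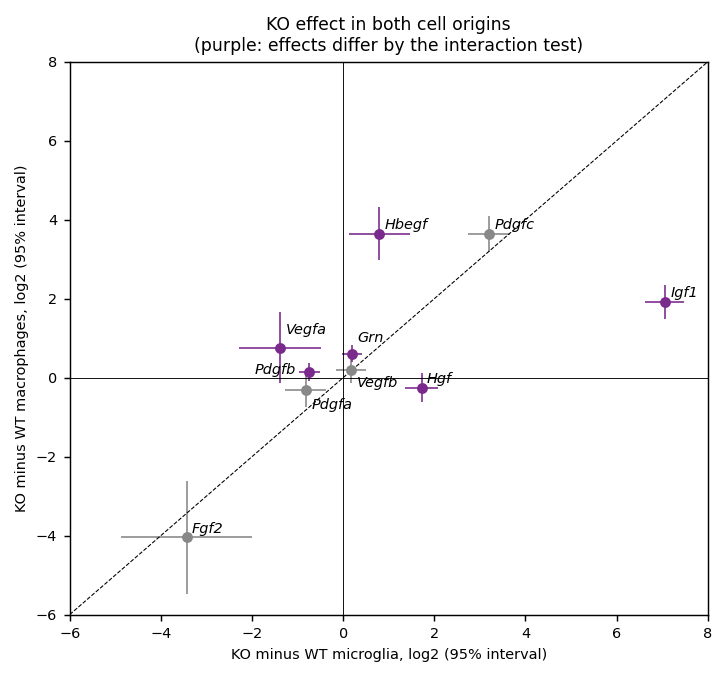
KO minus WT difference in macrophages against that in microglia for the 10 members, in log2 with 95% intervals; purple marks the 6 members whose effects differed by the test of the difference, and the dashed line is equality. Igf1 (7.06 and 1.92) and Hgf (1.72 and -0.25) lie below the line, and Hbegf (0.80 and 3.65) lies above it.

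Fgf2 and Pdgfa share exon bases with genes on the opposite strand, and whether counting used strand is not given in the sources used here. Grn with Fam171a2 (68 bases) and Pdgfc with Gm16000 (147 bases) also overlap on opposite strands. On the same strand, Hgf shares 484 exon bases with Gm43489 and Fgf2 shares 255 with Gm43439. Group means were at most 1.27 for Fam171a2 and 6.81 for Gm43489, while Gm16000 and Gm43439 had no values in the deposited table. Nudt6 shares 640 exon bases with Fgf2 and averaged 32.9, 15.7, 28.2 and 25.1 in WT microglia, KO microglia, WT macrophages and KO macrophages. It fell by log2 1.06 in KO microglia (limma, adjusted p = 0.00755) and differed by -0.16 in KO macrophages, where it was not called. The gene 6330403L08Rik shares 813 exon bases with Pdgfa, and its means were 152, 101, 158 and 95.9. It fell in both KO groups, by log2 0.58 among microglia (adjusted p = 0.000799) and by 0.71 among macrophages (adjusted p = 0.000281). Without strand, reads in the shared bases cannot be told apart. In WT macrophages Fgf2 (410.4) was far above Nudt6 (28.2), while 6330403L08Rik was above Pdgfa in every group.

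**Figure D5:**
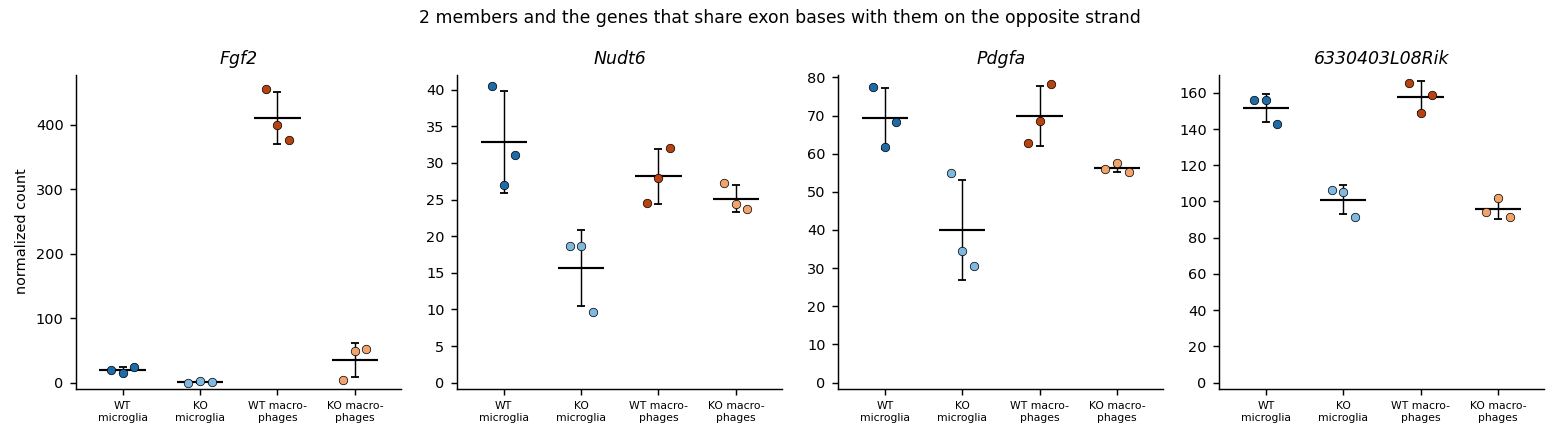
Normalized counts by library for Fgf2, Nudt6, Pdgfa and 6330403L08Rik; points are libraries, and lines with bars are the group mean ± SD. Nudt6 does not show the high WT macrophage level of Fgf2 (410.4 against 28.2), and 6330403L08Rik is lower in both KO groups (101 and 95.9).

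Among 26 receptors and co-receptors for these ligands, 13 were tested. In KO microglia 6 rose and 1 fell (median 0.99), where 21.9% of all tested genes rose and 20.6% fell (median -0.01). In KO macrophages 7 rose and 1 fell (median 1.09), where 16.0% of all tested genes rose and 15.4% fell (median 0.00). Sdc4, a heparan sulfate proteoglycan that binds FGF2, rose from 76.6 ± 24.9 to 1423 ± 183 in microglia (limma, adjusted p = 7.66e-11). It also rose in macrophages, from 249 ± 45.6 to 757 ± 97.9 (adjusted p = 1.31e-05). Sdc3, a related syndecan, rose from 405 ± 84.0 to 4811 ± 217 in microglia (adjusted p = 1.97e-12) and from 1075 ± 93.9 to 4206 ± 184 in macrophages (adjusted p = 1.29e-08). Sort1, the sorting receptor that takes up progranulin, fell from 1697 ± 184 to 471 ± 30.4 in microglia (adjusted p = 1.76e-09). Cd44, a carrier of heparin-binding ligands, rose from 108 ± 9.55 to 385 ± 38.3 in macrophages (adjusted p = 1.7e-07). It also rose in microglia, from 19.5 ± 2.95 to 172 ± 13.4 (adjusted p = 9.7e-11). The 1 receptor called lower in macrophages was not called without WT macrophages replicate 2, WT macrophages replicate 3 or KO macrophages replicate 1, which each left 0.

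Binding and carrier proteins were split in direction. Of the 15 genes 13 were in the table and 7 tested. In KO microglia 1 rose and 3 fell (median -0.05), against 21.9% and 20.6% of all tested genes. In KO macrophages 2 rose and 3 fell (median -0.09), against 16.0% and 15.4%. Igfbp4, an inhibitor of IGF1 action, rose from 124 ± 16.7 to 353 ± 44.5 in microglia (limma, adjusted p = 9.66e-07) and from 220 ± 33.3 to 521 ± 96.0 in macrophages (adjusted p = 1.99e-05). Sparc, which binds PDGF and VEGF and is also a microglial marker, fell from 8904 ± 1150 to 17.1 ± 7.36 in microglia (adjusted p = 2.61e-12). It also fell in macrophages, from 54.3 ± 17.6 to 15.6 ± 5.98 (adjusted p = 0.000469). Cd9, a tetraspanin partner of HB-EGF, fell from 845 ± 131 to 62.7 ± 6.92 in microglia (adjusted p = 1.46e-09). In macrophages Cd9 fell from 191 ± 18.9 to 79.4 ± 28.0 (adjusted p = 0.000275). Psap, which carries progranulin to lysosomes, rose from 6936 ± 611 to 12261 ± 1133 in macrophages (adjusted p = 1.26e-05), and Thbs1 fell from 334 ± 17.8 to 103 ± 37.9 (adjusted p = 3.76e-05).

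Proteases and their inhibitors, many of which release or activate these ligands, were also split. Of 28 genes 26 were in the table and 18 tested. In KO microglia 6 rose and 6 fell (median -0.13), against 21.9% and 20.6% of all tested genes. In KO macrophages 6 rose and 5 fell (median 0.12), against 16.0% and 15.4%, or 8 fell with scaling by library totals. Mmp9, a gelatinase, was at 0.345 ± 0.598 in WT microglia and 854 ± 239 in KO microglia (limma, adjusted p = 1.86e-12), and at 3.43 ± 1.44 in WT and 1256 ± 54.9 in KO macrophages (adjusted p = 1.38e-10). Hpn, encoding hepsin, which activates pro-HGF, rose from 48.3 ± 3.31 to 291 ± 27.4 in microglia (adjusted p = 3.16e-10) and from 63.8 ± 1.13 to 122 ± 11.9 in macrophages (adjusted p = 7.21e-05). Spint1, an inhibitor of the HGF activator, fell from 460.4 ± 26.7 to 2.56 ± 2.12 in microglia (adjusted p = 1.2e-09) and from 285 ± 29.6 to 62.1 ± 32.8 in macrophages (adjusted p = 0.000495). Mmp14, a membrane metalloproteinase, fell from 273 ± 50.7 to 6.64 ± 3.85 and from 872 ± 106 to 173 ± 112 (adjusted p = 2.96e-07 and 0.00072).

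Other growth factors were mostly too low to test: 10 of the 29 found passed, of 36 listed. In KO microglia 2 rose and 3 fell (median -0.84), against 21.9% and 20.6% of all tested genes. In KO macrophages 3 rose and 3 fell (median -0.35), against 16.0% and 15.4%. Gas6, a ligand of the TAM receptors, rose from 511 ± 122 to 2653 ± 144 in microglia (limma, adjusted p = 1.06e-09) and from 347 ± 1.28 to 1354 ± 167 in macrophages (adjusted p = 5.32e-08). Tgfa, an EGF receptor ligand like Hbegf, fell from 493 ± 31.9 to 21.5 ± 2.49 in microglia (adjusted p = 9.41e-08). At far lower levels it also fell in macrophages, from 13.8 ± 6.46 to 0.770 ± 0.724 (adjusted p = 1.64e-05). Clcf1, a cytokine of the CNTF family, fell in microglia from 184 ± 6.72 to 12.1 ± 2.05 (adjusted p = 1.67e-09) and in macrophages from 122 ± 9.27 to 26.7 ± 8.27 (adjusted p = 3.03e-06). Manf, an endoplasmic reticulum stress-linked trophic factor, rose from 194 ± 15.7 to 379 ± 102 in macrophages (adjusted p = 0.000393). Osm, oncostatin M, fell from 120 ± 8.45 to 73.6 ± 18.2 (adjusted p = 0.0107), a call lost without KO macrophages replicate 2 (adjusted p = 0.0506).

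Of 17 genes of the hypoxia response, of which Vegfa is a known target, 13 were tested. In KO microglia 1 rose and 6 fell (median -0.36), against 21.9% and 20.6% of all tested genes. Those that fell were Hif1a, Vhl, Egln1, Slc2a1, Pdk1 and P4ha1. They include regulators of the response as well as its targets, so the count does not measure its activity. In KO macrophages 3 rose and 2 fell (median -0.09), against 16.0% and 15.4%. Slc2a1, the glucose transporter GLUT1, fell from 190.2 ± 17.2 to 40.1 ± 4.39 in microglia (limma, adjusted p = 1.96e-06) and from 126 ± 22.1 to 54.4 ± 21.6 in macrophages (adjusted p = 0.00101). Vhl, which directs HIF for degradation, fell from 167 ± 5.30 to 43.4 ± 7.15 (adjusted p = 1.41e-07) and from 90.5 ± 10.1 to 58.8 ± 8.03 (adjusted p = 0.0109, or 0.0516 without WT macrophages replicate 1). Ldha, lactate dehydrogenase A, rose from 104 ± 14.1 to 177 ± 16.9 in macrophages (adjusted p = 0.00101), and Pdk1 from 167 ± 18.0 to 224 ± 10.8 (adjusted p = 0.00476). In microglia Pdk1 went the other way, from 494 ± 39.7 in WT to 227 ± 4.32 in KO cells (adjusted p = 2.46e-07). Ldha was not called there (adjusted p = 0.402). The 1 gene called higher in microglia was not called without WT microglia replicate 1, WT microglia replicate 2 or KO microglia replicate 1, which left 0, and 1 gene was lower in macrophages without WT macrophages replicate 1.

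Hbegf is known as a gene that is induced early by cell stress. All 24 genes on the list for early response to cell isolation were tested. In KO microglia 5 rose and 2 fell (median 0.12), against 21.9% and 20.6% of all tested genes. In KO macrophages 5 rose and 0 fell (median 0.21), against 16.0% and 15.4%. In WT macrophages 1 was higher and 11 were lower than in WT microglia (median -0.53), against 19.2% and 20.2%. Hbegf was also lower in WT macrophages than in WT microglia. In KO macrophages 0 of these genes were lower at an unadjusted p under 0.05 and 0 by limma-voom. Hspa1a, a heat shock chaperone, rose from 974 ± 373 to 3521 ± 302 in microglia (limma, adjusted p = 5.22e-05), and Fos from 869 ± 323 to 2522 ± 481 (adjusted p = 0.00216). Rhob fell from 4676 ± 417 to 1742 ± 257 (adjusted p = 0.000803). In macrophages Egr2 rose from 19.3 ± 2.17 to 73.3 ± 56.0 (adjusted p = 0.00602) and Dusp1 from 765 ± 256 to 1413 ± 425 (adjusted p = 0.00462). Dusp1 also rose in microglia, from 914 ± 113 to 2253 ± 275 (adjusted p = 0.000124). Without KO macrophages replicate 1 the counts were 9 rising and 6 falling in microglia and 3 falling in macrophages, and without WT microglia replicate 3 it was 8 rising in microglia. The part of handling in the Hbegf values was not tested.

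For the 4 members with the widest range of group means, the 3 genes with the most similar profile over the 12 libraries were listed, among 6549 tested genes with a mean of at least 100 in some group. Pearson's r is given as a description, since the libraries fall in 4 groups and share cell origin and genotype. Iqgap2, Hip1 and Iqgap1 followed Igf1 (r of 0.997, 0.997 and 0.996), and Iqgap1 rose from 89.0 in WT to 3158 in KO microglia. Nxpe5, Capn2 and Mcoln2 followed Pdgfc (0.991, 0.990 and 0.989). Npl, Tlr5 and Clta followed Hbegf (0.981, 0.980 and 0.978), and Osbpl3, Cpd and Zbtb20 followed Fgf2 (0.979, 0.967 and 0.963).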

How the data were processed

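The authors deposited 1 table of log2 values for 25904 genes in 12 libraries; its unit, as read from the values, is log2 of the normalized count plus 1, where each read count was divided by a size factor. Raising 2 to each value and subtracting 1 gave whole reads for 100% of 310848 values (tolerance 0.01 reads, largest deviation 0.0031), and the size factors equalled median-of-ratios factors computed from those reads. STAR, CASAVA and bcl2fastq are the tools, and GRCm38 the build, per the submitters' processing notes. Versions, roles, the read counter, its strand setting and the annotation were not given in the sources used here. Per the labels' protocols, the RNA had integrity numbers of 7.1 to 10, each input exceeded 100 pg, and a stranded pico-input total RNA kit was used; all samples are labelled lane 1.

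Symbols, coordinates and exon lengths came from GENCODE mouse release 21 on GRCm38 (25730 identifiers had a symbol, 174 did not). Upstream sequences, some of which lie in exons of the gene, came from RefSeq. Genes with at least 10 normalized counts in at least 3 libraries were tested (12519 tested, 13385 not). Tests used R 4.3.3 with limma 3.58.1 (lmFit with 1 mean per group over all 12 libraries, eBayes with a mean-variance trend) on the deposited values, pseudocount 1, with Benjamini-Hochberg adjustment over all tested genes. Fold changes on this scale understate changes of low genes. Ratios of pooled reads have exact (Clopper-Pearson) 95% binomial intervals. Tables and figures were made in Python 3.11.15 with pandas 2.3.3, numpy 2.4.6, matplotlib 3.10.9 and scipy 1.17.1, and the fit was tested on simulated data.

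The text names all 10 members and Tgfbr2. From each of 6 lists it names up to 2 called genes in each direction and KO comparison whose higher group averaged at least 50. It names 3 genes most alike for each of 4 members. Lists and members were chosen with earlier results of these data known. Genes listed but not found in the table are not analysed here. Replicates were numbered in accession order within a group. Alternatives were the pseudocount, the filter, the scaling, a covariate, the groups fitted and leaving out each library.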

Additional observations from a re-analysis of the deposited data

Results flagged for a closer look

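For 6 members the KO effect differed between macrophages and microglia by limma's test of the difference, and each value is the macrophage effect minus the microglial effect in log2 units. Igf1 rose in both origins, and its effect was smaller in macrophages (difference -5.14, adjusted p = 5.06e-09). Hgf rose in microglia and not in macrophages by the test of each (difference -1.97, adjusted p = 2.77e-05). Hbegf had the larger rise in macrophages (difference 2.85, adjusted p = 0.000207). Pdgfb fell in microglia and was not called in macrophages (difference 0.89, adjusted p = 0.000514). Vegfa was lower in KO microglia and was not called in macrophages (difference 2.14, adjusted p = 0.0153, or 0.0521 with Ddx3y as a covariate). Grn was called in macrophages and not in microglia (difference 0.42, adjusted p = 0.0484, or 0.144 with that covariate).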

How the results depend on the processing

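No paired analysis was possible because the labels give no replicate numbers that the groups share. The count of members called was within 1.5 times the reported one under the other settings, with 4 in place of 6 for the difference of the KO effects with the Ddx3y covariate (2 higher in place of 4, and 2 lower as before; Vegfa and Grn lost the call). Over the 12 fits that each left out 1 library, it was 6 to 9 for KO against WT microglia, 5 in every fit for the macrophages, 7 to 9 for WT macrophages against WT microglia, 3 to 4 for KO macrophages against KO microglia and 5 to 6 for the difference of the KO effects. Of the members' called values, 605 stayed called in the same direction and 21 lost the call; of the uncalled ones, 430 stayed uncalled in the same direction, 13 were called and 11 changed sign. For Pdgfa, WT macrophages against WT microglia (0.01) became -0.064 without WT microglia replicate 2 and -0.069 without WT macrophages replicate 3, in a range of -0.069 to 0.097 over the fits without 1 library. For Grn, KO macrophages against KO microglia (-0.09) became 0.0058 without KO macrophages replicate 3 (range -0.22 to 0.0058). For Vegfb, the difference of the KO effects (0.03) became -0.063 with the Ddx3y covariate, -0.061 without WT microglia replicate 1, -0.027 without WT macrophages replicate 1, -0.16 without KO macrophages replicate 1 (range -0.16 to 0.15), -0.018 by limma-voom and -0.015 with scaling by library totals. For Fgf2 it went from -0.61 to 0.44 without KO macrophages replicate 1 (range -1.15 to 0.44) and to 0.38 by limma-voom. The cause of these changes was not tested. A filter at 50 normalized counts removed Vegfa and Hbegf. The planned count models were not run because the deposited unit is log2; limma-voom on the recovered reads and scaling by library totals were chosen after seeing the data. Depth limits Igf1 and Pdgfc in WT microglia (19 and 12 reads), Hbegf in WT macrophages (4 reads) and Fgf2 in KO microglia (4 reads).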

Other observations

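Of the other growth factors listed, 3 neurotrophic ligands chosen after their values were seen had few reads. Bdnf, the ligand of TRKB, had no reads in WT microglia and averaged 0.328 ± 0.568 in KO microglia, while the WT macrophages had 0.303 ± 0.526 and the KO macrophages 0.291 ± 0.504. Gdnf, a survival factor for dopaminergic neurons, averaged at most 0.534 ± 0.924, in KO macrophages, and Cntf at most 1.79 ± 0.731, in KO microglia. None of these 3 genes passed the filter for testing, whereas Clcf1 and Manf of the same list did, with group means of up to 184 and 379.

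Receptor tyrosine kinases for the members ranged widely in the same cells, and those given here were chosen after their values were seen. Pdgfra averaged at most 5.09 ± 1.88 (KO microglia), Pdgfrb 1.23 ± 1.33 (WT microglia), Egfr 2.32 ± 1.55 (KO microglia) and Met 7.46 ± 6.91 (KO macrophages), and none of these 4 was tested. Higher levels were found for Insr, the insulin receptor (525 to 724 over the group means), for Kdr (57.3 in WT and 72.6 in KO microglia), for Flt1 (44.3 in WT macrophages) and for Fgfr1 (15.1 and 21.9 in WT and KO microglia). Kdr is also on the list of vessel markers, and the part of vessel cells in its level was not tested. Igf1r, the receptor of IGF1, was at 217 ± 19.8 in WT and 205 ± 14.7 in KO microglia, a difference of -0.08 that limma did not call (adjusted p = 0.8), and at 73.4 ± 21.7 and 74.0 ± 19.5 in WT and KO macrophages. Nrp1, a co-receptor of VEGF-A, rose from 1112 ± 99.0 in WT to 3183 ± 167 in KO microglia (adjusted p = 3.44e-09).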
